A study of Danio rerio with 4 samples.

Results

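The 7 genes described here are transcription factors and a secreted ligand that mark regions of the developing brain: nkx2.1, nkx2.2a, vax1, foxb1a, foxd2, nr2f2 and wnt8b. They are 7 of 24435 gene symbols measured, and they were chosen by symbol after earlier results of these data were known, including their shares of positive cells, their levels and their joint detection. Those values are therefore given as a description, with no test. The cells are the 4148 cells in which fabp7a, a fatty acid binding protein of radial glia, made up at least 0.5% of the UMIs (unique molecular identifiers, which count captured transcripts). They were taken from 4732 cells that passed the filters, out of 4857 deposited barcodes. These cells are called fabp7a cells below, and a cell is called positive for a gene when it holds at least 1 UMI of it.

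The study sorted dTomato-positive cells from adult zebrafish telencephalon, the front part of the brain, to follow radial glia after a stab wound. Each of the 4 conditions is 1 droplet library of 3′ ends, made from 7 telencephalons pooled before dissociation. The injured library with MTZ and the injured library come from 3 days after the lesion, and the uninjured library with MTZ and the uninjured library come from fish without a lesion. All fish carried the Tg[GFAP:dTomato]nns17Tg transgene, in which a GFAP promoter drives the red reporter, and were 3 to 7 months old. Only the fish given MTZ (metronidazole) also carried Tg[mpeg1:NTR-EYFP]w202, in which the mpeg1 promoter of microglia and macrophages drives nitroreductase, an enzyme that turns MTZ into a toxin. MTZ, that second transgene and the pool of fish therefore cannot be told apart. The treatment label of all 4 libraries names a stab lesion, so the groups were taken from the sample titles. With 1 library per group there is no replicate test, and every interval below is an exact 95% interval that covers counting error only.

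Radial glia line the ventricle of the adult zebrafish telencephalon, where they serve as neural stem cells. Regional identity in the forebrain is laid down in the embryo by signals such as Hedgehog from the ventral midline and Wnt and BMP from the dorsal midline, which set up domains of transcription factors. Many of these factors continue to be expressed in adult progenitors. Among homeodomain factors, nkx2.1 marks the ventral telencephalon, preoptic area and hypothalamus, nkx2.2a marks domains next to the Hedgehog source, and vax1 marks the ventral forebrain and optic stalk. The forkhead factors foxb1a and foxd2 are known from the diencephalon and from the preoptic region, nr2f2 encodes the orphan nuclear receptor COUP-TFII, and wnt8b encodes a Wnt ligand of the dorsal midline and the diencephalon.

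The 4 libraries, in the order injured with MTZ, injured, uninjured with MTZ and uninjured, held 1279, 950, 1240 and 679 fabp7a cells. The median depth of those cells was 4126, 3893.5, 2739 and 3382 UMIs in the same order, and 7 barcodes occurred in more than 1 library. The radial glia label held in these cells: all 12 listed radial glia markers were detected in at least 50% of them, the lowest being her4.1 at 64.5%. The 12 include fabp7a, which the rule that chose the cells fixes at 100%. The 12 microglia or macrophage markers were each detected in at most 3.18% of them (cd74a), with mpeg1.1 in 0.169%. Among the 13 mature neuron markers, snap25a was detected in 1.28%, and the most frequent were vamp2 in 18.6% and nrxn1a in 17.8%. The most frequent marker was notch3 (69.6%) of the mural list, krt8 (34.4%) of the epithelial list and sox11a (21.3%) of the immature neuron list. The summed level of the 12 microglia or macrophage markers in fabp7a cells was 27.1 CPM (counts per 1000000 UMIs) in the injured library with MTZ, 52.7 in the injured, 132 in the uninjured with MTZ and 4.82 in the uninjured library, and its part in the values below was not tested.

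All 7 genes were found in a minority of fabp7a cells. Positive cells numbered 76 for nkx2.1, 71 for nkx2.2a, 195 for vax1, 72 for foxb1a, 111 for foxd2, 549 for nr2f2 and 53 for wnt8b. Most fabp7a cells, 3380 of them or 81.5%, held no UMI of any of the 7, and 560 cells or 13.5% held exactly 1 of the genes. The remainder comprised 110 cells with 2 of the genes, 56 with 3, 31 with 4 and 11 with 5. Between 35.8% (wnt8b) and 61.1% (foxb1a) of the positive cells held a single UMI of the gene, so a share of positive cells depends on depth. Positive cells were deeper than negative cells for each gene, most for nkx2.1, with a median of 7525 UMIs in nkx2.1-positive and 3396 in nkx2.1-negative cells. For nkx2.2a these medians were 4196 and 3427 UMIs.

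Among cell classes named from their markers, the 103 microglia or macrophage-like cells held no UMI of any of the 7 genes. The upper bound of each share is 3.52%, at their median depth of 734 UMIs. The 87 mature neuron-like cells, with a median depth of 3196 UMIs, included 1 cell with nkx2.1, 1 with nkx2.2a, 3 with foxb1a, 6 with vax1 and 11 with nr2f2. The nr2f2 share of the neuron-like cells was 12.6%, near its share in fabp7a cells, so the share over all fabp7a cells is not read as above that level. The same holds for vax1, at 6.90% of neuron-like and 4.70% of fabp7a cells, and for foxb1a, at 3.45% and 1.74%. Some of the neuron-like cells were themselves fabp7a cells. Of the 82 that were not, 0 held foxb1a or nkx2.2a, with an upper bound of 4.40% for each. Of the same 82 cells, 1 held nkx2.1, 6 held vax1 and 11 held nr2f2. In the 305 cycling progenitor-like cells nr2f2 was detected in 15.7% and wnt8b in none. At the edge of the fabp7a rule, cells with fabp7a between 0.25% and 0.5% of UMIs were positive for nr2f2 in 11.8% of 187 cells and for foxd2 in 2.67%. Cells with fabp7a between 0.5% and 0.75% were positive for nr2f2 in 6.82% of 220 cells and for foxd2 in 3.18%.

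The homeodomain factor nkx2.1 was the only one of the 7 genes whose CPM over all fabp7a cells was higher after injury in both comparisons. It was detected in 2.50% of fabp7a cells of the injured library with MTZ (32 cells) and 3.16% of the injured library (30 cells), against 0.645% of the uninjured library with MTZ (8 cells) and 0.884% of the uninjured library (6 cells). Its level was 13.1 CPM in the injured library with MTZ and 18.1 CPM in the injured library, against 2.90 CPM in the uninjured library with MTZ and 3.71 CPM in the uninjured library. Both injured libraries thus lay above both uninjured libraries. The injured to uninjured difference was 2.29 on the log2 scale (1.33 to 3.40), and with MTZ it was 2.17 (1.22 to 3.29). The uninjured levels rest on 10 UMIs each, so the sizes of these differences are imprecise. With every cell thinned to 1000 UMIs, nkx2.1 was detected in 0.656% of cells of the injured library with MTZ, 1.21% of the injured, 0.341% of the uninjured with MTZ and 0.155% of the uninjured library. The thinning left out 59, 38, 359 and 33 shallower cells of those libraries, and the thinned uninjured values rest on 3 cells and 1 cell.

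The homeodomain factor nkx2.2a was lower after injury in both comparisons. It was detected in 1.56% of fabp7a cells of the injured library with MTZ and 0.842% of the injured library, against 2.18% of the uninjured library with MTZ and 2.36% of the uninjured library. Its levels were 5.76 CPM in the injured library with MTZ, 2.49 CPM in the injured, 12.5 CPM in the uninjured with MTZ and 12.2 CPM in the uninjured library. The 2 uninjured libraries were close to each other, and the injured library without MTZ was the lowest of the 4. The injured to uninjured difference was -2.30 log2 (-3.43 to -1.28), and with MTZ it was -1.11 (-1.81 to -0.43). The injured library with MTZ lay above the injured library by 1.21 log2 (0.20 to 2.34), the only difference past 2-fold between MTZ and no MTZ among the 7 genes. The injured library held 8 nkx2.2a-positive cells, with 11 UMIs in all.

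The third homeodomain factor, vax1, showed smaller differences. Its level was 20.5 CPM in the injured library with MTZ, 26.0 CPM in the injured, 27.2 CPM in the uninjured with MTZ and 43.4 CPM in the uninjured library. The uninjured library was thus the highest, and the other libraries lay below it. The injured to uninjured difference was -0.74 log2 (-1.12 to -0.35), with MTZ it was -0.41 (-0.81 to -0.00, its upper bound just under 0), and uninjured fish with MTZ lay below uninjured fish by -0.67 (-1.08 to -0.27). The share of positive cells gave another order, with 4.07% in the injured library with MTZ and 6.0% in the injured, against 3.79% in the uninjured with MTZ and 5.74% in the uninjured library, so no order of the libraries is read from it.

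The forkhead factor foxb1a had the largest negative injury difference among the 7 genes. It was detected in 13 cells or 1.02% of the injured library with MTZ and in 5 cells or 0.526% of the injured library, against 38 cells or 3.06% of the uninjured library with MTZ and 16 cells or 2.36% of the uninjured library. Its levels were 2.88 CPM in the injured library with MTZ and 2.26 CPM in the injured, against 18.8 CPM in the uninjured with MTZ and 16.7 CPM in the uninjured library. Both injured values lay below both uninjured values in either measure, while the intervals of the shares overlapped between the injured library with MTZ (0.542% to 1.73%) and the uninjured library (1.35% to 3.80%). Injured minus uninjured was -2.88 log2 (-4.04 to -1.87), and with MTZ it was -2.71 (-3.57 to -1.92). The level within positive cells was also lower after injury, at 183 CPM in the injured library with MTZ and 192 CPM in the injured. It was 495 CPM in the uninjured with MTZ and 473 CPM in the uninjured library. The injured values rest on 17 UMIs with MTZ and 10 UMIs without, and 1 cell held 24.4% of the UMIs of the uninjured library. The injured cells were deeper, and the part of depth in these levels was not tested. After thinning to 1000 UMIs, foxb1a was detected in 0.410% and 0.219% of cells with and without MTZ after injury, against 2.16% and 1.55% with and without MTZ in uninjured fish.

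The second forkhead factor, foxd2, was also lower in both injured libraries. It was detected in 2.03% of fabp7a cells of the injured library with MTZ and 1.58% of the injured library, against 3.47% of the uninjured library with MTZ and 3.98% of the uninjured library. Its levels were 10.0 CPM in the injured library with MTZ and 7.02 CPM in the injured, against 22.0 CPM in the uninjured with MTZ and 23.4 CPM in the uninjured library. Both injured values lay below both uninjured values. Between the injured and the uninjured library the difference was -1.74 log2 (-2.41 to -1.09), and with MTZ it was -1.14 (-1.65 to -0.63).

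The nuclear receptor gene nr2f2 was the most widely detected of the 7. It was found in 13.9% of fabp7a cells of the injured library with MTZ and 11.4% of the injured, against 14.4% of the uninjured with MTZ and 12.4% of the uninjured library. Its levels were 53.6 CPM in the injured library with MTZ and 44.6 CPM in the injured, against 85.8 CPM in the uninjured with MTZ and 74.2 CPM in the uninjured library. The shares lay close together while the levels were lower in both injured libraries. The injured to uninjured difference was -0.73 log2 (-1.03 to -0.44), and with MTZ it was -0.68 (-0.91 to -0.45). Thinned to 1000 UMIs, 4.51% of cells of injured fish with MTZ and 3.62% of cells of injured fish were positive, against 7.83% for uninjured fish with MTZ and 5.42% for uninjured fish.

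The Wnt ligand gene wnt8b was the rarest. It was detected in 13 cells or 1.02% of the injured library with MTZ and 9 cells or 0.947% of the injured, against 20 cells or 1.61% of the uninjured with MTZ and 11 cells or 1.62% of the uninjured library. Its levels were 6.78 CPM in the injured library with MTZ and 4.53 CPM in the injured, against 13.6 CPM in the uninjured with MTZ and 16.3 CPM in the uninjured library. The levels in the injured libraries lay below those in the uninjured libraries, while the intervals of the shares overlapped. Without MTZ, the difference between injured and uninjured was -1.85 log2 (-2.69 to -1.06), and with MTZ it was -1.01 (-1.65 to -0.37), which lies just past 2-fold.

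**Figure D1:**
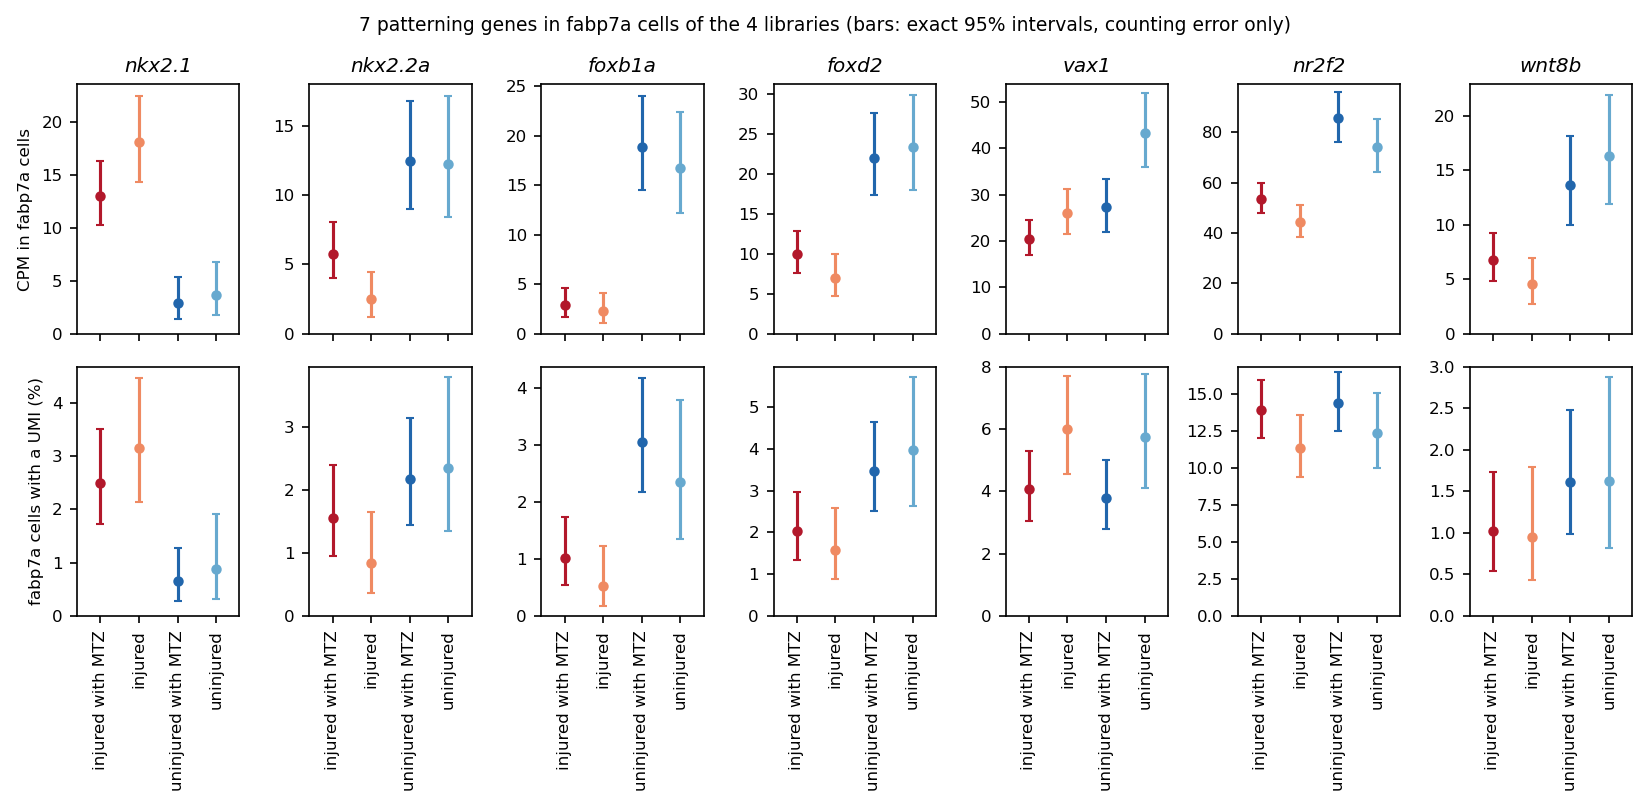
Levels of the 7 genes in CPM (upper row, bars are exact Poisson 95% intervals) and percent of fabp7a cells with at least 1 UMI (lower row, bars are exact Clopper-Pearson 95% intervals) in the 4 libraries, 1 point per library. The nkx2.1 points of both injured libraries, at 13.1 and 18.1 CPM, sit above those of both uninjured libraries, at 2.90 and 3.71 CPM, and the foxb1a points sit the other way round.

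Counted over the 7 genes, 1 was at least 2-fold higher and 4 were at least 2-fold lower in the injured library than in the uninjured library, where 5.86% of 10716 genes with enough UMIs were at least 2-fold higher and 6.24% were at least 2-fold lower. The same counts, 1 higher and 4 lower, came from the injured library with MTZ against the uninjured library with MTZ, where 5.48% of 11185 genes were higher and 5.98% lower by 2-fold. The median difference of the 7 genes was -1.74 log2 without MTZ, where the median of all genes was -0.18, and -1.01 log2 with MTZ, where the median of all genes was -0.01. Since these levels were known when the genes were chosen, nothing is read from the counts. Between MTZ and no MTZ, 1 gene (nkx2.2a) was higher and 0 were lower by 2-fold in the injured libraries, where 2.47% of 11410 genes were higher and 4.88% lower. In the uninjured libraries 0 of the 7 genes were past 2-fold, where 3.12% of 10235 genes were higher and 4.95% lower. In each of these pooled counts, fewer cells of a type and less RNA of a gene per cell cannot be told apart. The injured to uninjured difference with MTZ minus that without MTZ was largest for nkx2.2a, at 1.19 log2, and was -0.12 for nkx2.1. It was not tested, as each difference rests on 1 library per group.

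**Figure D2:**
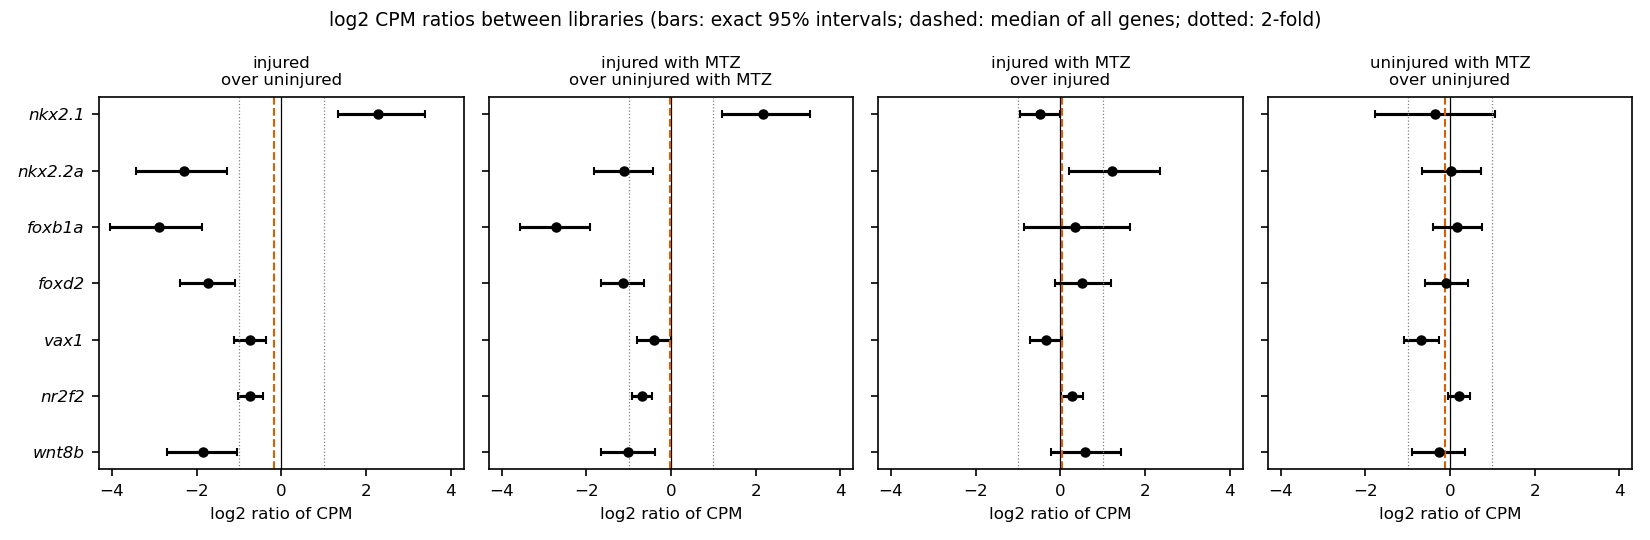
Differences of level between pairs of libraries for the 7 genes, as log2 ratios of CPM with exact conditional binomial 95% intervals, in 4 comparisons. Dashed lines mark the median of all genes and dotted lines 2-fold. In both injury comparisons nkx2.1 lies above the 2-fold line, and nkx2.2a, foxb1a, foxd2 and wnt8b lie below it.

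Clustering of all kept cells without the 7 genes gave 26 clusters, and the positive cells were concentrated in few of them. Cluster 10, led by dcn (the small proteoglycan decorin), nkx2.2b and gdf10a (a BMP-family ligand), held 157 fabp7a cells. It was left unnamed, since its 10 leading genes held dcn and nkx2.2a, which are listed as fibroblast and oligodendrocyte precursor markers, and no listed radial glia marker. Each of the 12 radial glia markers was nevertheless detected in at least 86.6% of its fabp7a cells, while the collagen genes col1a1a, col1a1b and col1a2, lum, olig1, sox10, cspg4 and gpr17 were all at 0. Of the other listed markers of these types, dcn was found in 86.6% of its cells, olig2 in 36.9%, against 3.45% of all fabp7a cells, and pdgfra in 3.82%, against 7.64%. Of its fabp7a cells, 60.5% were positive for nr2f2, 59.9% for vax1, 51.6% for foxd2, 33.8% for nkx2.2a, 26.8% for foxb1a and 20.4% for wnt8b. At least 1 of the 7 genes was found in 94.3% of them, but nkx2.1 in 0 of 157, where 3 cells would make 1.91%. Over all fabp7a cells nkx2.1 was found in 1.83%, so no lower share in cluster 10 is read from this count. Cluster 10 contained 74.6% of all nkx2.2a-positive fabp7a cells, 73.0% of those with foxd2, 60.4% of those with wnt8b and 58.3% of those with foxb1a. It contained 48.2% of the vax1-positive and 17.3% of the nr2f2-positive cells.

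A separate cluster held nkx2.1. Cluster 13, led by si:dkey-58i8.5, the netrin gene ntn1b, nkx2.4b and slit3, was radial glia-like by its markers and held 108 fabp7a cells. Of these, 53.7% were positive for nkx2.1, and they made up 76.3% of all nkx2.1-positive cells. In the same cluster vax1 was detected in 18.5% and nr2f2 in 4.63% of cells. A further 5.0% of the 160 cells of cluster 9, led by slc47a2.2, were nkx2.1-positive. Both foxb1a and wnt8b were also frequent in cluster 19, led by slit1b and shha, the Sonic hedgehog ligand, where 30.8% of 52 cells were positive for foxb1a and 28.8% for wnt8b. In cluster 17, led by si:dkey-71d15.2 and with tekt4, a gene of motile cilia, among its leading genes, 21.9% of 73 cells were positive for foxd2, 19.2% for vax1 and 24.7% for nr2f2.

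Detection of nr2f2 was spread over more clusters. It reached 28.5% in cluster 7, led by her9, 22.3% in cluster 2, led by cyp26c1, 21.3% in cluster 9 and 19.1% in cluster 0, led by lipg. It was found in 1 of 508 cells of cluster 1, led by lypd6, and in 1 of 263 cells of cluster 5, led by tagln. The median depth was 3430 UMIs per cell in cluster 0, 4506 in cluster 1 and 2099 in cluster 5.

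**Figure D3:**
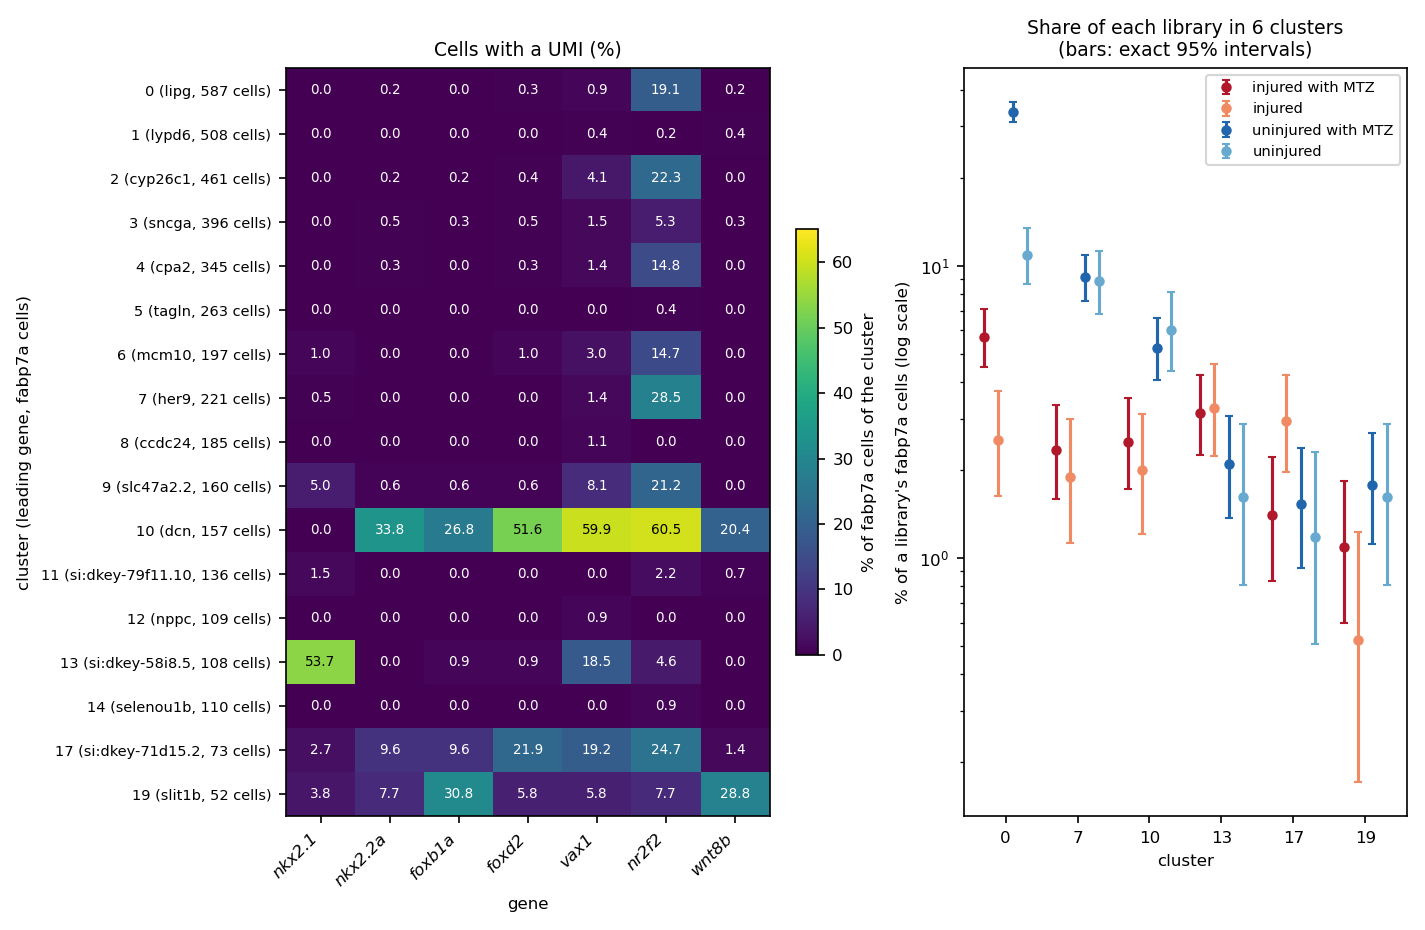
Percent of fabp7a cells positive for each of the 7 genes in the 17 clusters with at least 50 fabp7a cells (left), and share of each library's fabp7a cells in 6 of these clusters on a log axis (right). Cluster 10 is high for every gene but nkx2.1, cluster 13 holds nkx2.1, and nr2f2 is spread over several clusters.

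The libraries differed in how many of their fabp7a cells fell in these clusters. Cluster 10 held 2.50% of the fabp7a cells of the injured library with MTZ and 2.0% of the injured library, against 5.24% of the uninjured library with MTZ and 6.04% of the uninjured library. Cluster 13 held 3.13% of the injured library with MTZ and 3.26% of the injured, against 2.1% of the uninjured with MTZ and 1.62% of the uninjured library. Cluster 7, with her9 and nr2f2, held 2.35% and 1.89% of the injured libraries with and without MTZ, against 9.11% and 8.84% of the uninjured libraries with and without MTZ. Injured libraries were therefore lower in clusters 10 and 7, where their intervals lay below those of the uninjured libraries. In cluster 13 the injured shares were higher, but every injured interval overlapped both uninjured intervals. These were 2.24% to 4.23% and 2.23% to 4.60% after injury with and without MTZ. In uninjured fish they were 1.37% to 3.06% with MTZ and 0.81% to 2.88% without. In cluster 7 nr2f2 was detected in 11 of 30 and 2 of 18 cells after injury with and without MTZ. In uninjured fish it was detected in 35 of 113 and 15 of 60 cells of that cluster with and without MTZ.

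Within clusters 13, 10 and 0 some injury differences were unlike those over all fabp7a cells. Others kept the sign of their value, such as that of foxb1a in cluster 10, where the interval without MTZ included 0. In cluster 13 nkx2.1 was detected in 26 of 40 cells of the injured library with MTZ and 19 of 31 of the injured, against 7 of 26 of the uninjured with MTZ and 6 of 11 of the uninjured library. Its injury difference there was 0.12 log2 (-0.87 to 1.26) without MTZ and 0.65 (-0.37 to 1.84) with MTZ, against 2.29 and 2.17 over all fabp7a cells. In cluster 10 the injury difference of nkx2.2a was -1.12 log2 (-2.67 to 0.16) without MTZ and 0.44 (-0.34 to 1.22) with MTZ. The foxb1a difference in cluster 10 was -1.40 (-3.38 to 0.12) without MTZ and -1.51 (-2.83 to -0.36) with MTZ. For wnt8b the difference in cluster 10 was positive, at 0.84 (-0.19 to 1.83) without MTZ and 1.07 (0.15 to 2.02) with MTZ. The other genes of cluster 10 lay between -0.79 (foxd2) and -0.46 (nr2f2) without MTZ and between 0.25 (nr2f2) and 0.35 (vax1) with MTZ. In cluster 10 with MTZ, the wnt8b difference thus lay above 0 where that over all fabp7a cells was negative. The values of nkx2.2a, foxd2, vax1 and nr2f2 were also positive there, but their intervals included 0, so no direction is read from them. These intervals were -0.32 to 0.84 for foxd2, -0.13 to 0.83 for vax1 and -0.27 to 0.77 for nr2f2. Without MTZ the intervals of foxd2, vax1 and nr2f2 in cluster 10 included 0 as well. For nr2f2 in cluster 0 it was 1.49 (0.36 to 2.60) without MTZ and 0.79 (0.25 to 1.32) with MTZ, the opposite direction to that over all fabp7a cells. These within-cluster values rest on as few as 19 cells of the injured library in cluster 10 and 11 cells of the uninjured library in cluster 13. The wnt8b value with MTZ rests on 26 UMIs in 10 injured cells against 18 UMIs in 10 uninjured cells. For nr2f2 in cluster 0 without MTZ there were 14 UMIs in 7 injured cells against 17 UMIs in 10 uninjured cells. The intervals treat UMIs of the same cell as independent and each side is 1 library, so they settle no direction for these values either.

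The choice of cells bore on the counts. One alternative used the 11 clusters named radial glia-like in place of the fabp7a rule. It leaves out cluster 10, the other unnamed clusters such as cluster 17, and the cycling progenitor-like clusters. There 5 genes were again past 2-fold in each injury comparison, but with 3 higher and 2 lower without MTZ. With MTZ 2 were higher and 3 lower. In the radial glia-like clusters vax1 had an injury difference of 1.80 log2 without and 1.38 with MTZ, and foxd2 one of 1.43 without MTZ. Over all 4 libraries these clusters held 12 foxd2-positive, 20 foxb1a-positive and 19 wnt8b-positive cells. The differences of those genes there rest on few cells. The differences of nkx2.1 (2.17 without and 2.18 with MTZ), foxb1a (-4.57 and -2.58) and wnt8b (-3.66 and -1.74) kept their direction, and nr2f2 was at 0.01 and -0.69.

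The 7 genes formed 21 pairs, and in 15 of them the second gene was found more often among cells positive for the first in all 4 libraries. The genes were chosen partly on this joint detection, and positive cells were deeper, so this count is a description. With cells thinned to 1000 UMIs the count was 4 pairs, with 2 UMIs required it was 9, and in the radial glia-like clusters it was 2. The pair of foxd2 and vax1 was found in 66 cells. Among foxd2-positive cells 59.5% held vax1, against 3.20% of foxd2-negative cells. By library, vax1 was found in 18 of 26 foxd2-positive cells of the injured library with MTZ and 6 of 15 of the injured, against 21 of 43 of the uninjured with MTZ and 21 of 27 of the uninjured library. Joint detection was thus high in each library, with the lowest share in the injured library.

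Further pairs linked the same genes. Among nkx2.2a-positive cells 50.7% held foxd2, against 1.84% of nkx2.2a-negative cells, and 56.3% held vax1, against 3.80%. Among vax1-positive cells 52.3% held nr2f2, against 11.3% of vax1-negative cells. Among foxb1a-positive cells 19.4% held wnt8b, against 0.957% of foxb1a-negative cells. All 6 of these genes were found in cluster 10, and the number of cells of each pair by cluster is not given here.

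Of the pairs with nkx2.1, only that with vax1 was found more often together in all 4 libraries. Of the 76 nkx2.1-positive cells, 0 held nkx2.2a, foxd2 or wnt8b, with an upper bound of 4.74% for each, and 1 held foxb1a. Among nkx2.1-negative cells the shares were 1.74% for nkx2.2a, 2.73% for foxd2, 1.30% for wnt8b and 1.74% for foxb1a. These lie below that bound, so no lower share in nkx2.1-positive cells is read from the counts. The one frequent partner of nkx2.1 was vax1, found in 27.6% of nkx2.1-positive cells against 4.27% of nkx2.1-negative cells. That pair occurred in 8 of 32 nkx2.1-positive cells of the injured library with MTZ and 9 of 30 of the injured, against 2 of 8 of the uninjured with MTZ and 2 of 6 of the uninjured library. Pooled over the libraries, 6.58% of nkx2.1-positive cells held nr2f2, against 13.4% of nkx2.1-negative cells, but the libraries differed in direction. After injury nr2f2 was found in 1 of 32 nkx2.1-positive cells with MTZ and 0 of 30 without, a lower share than in negative cells. In uninjured fish it was found in 3 of 8 with MTZ and 1 of 6 without, a higher share than in negative cells.

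Cells with vax1 therefore fell into those with and those without nkx2.1, a split made after the values were seen. Of the 21 cells with both, 38.1% held slit3 and 42.9% held ntn1b, both axon guidance ligands. In these cells 0 held foxd2, nkx2.2a or gdf10a, with an upper bound of 16.1% for each. That was fixed before the split, since 0 of all 76 nkx2.1-positive cells held any of them, so it adds nothing further. Likewise slit3 and ntn1b were frequent in nkx2.1-positive cells as a whole, at 32.9% and 64.5%. Of the 174 cells with vax1 but no nkx2.1, 37.9% held foxd2, 23.0% nkx2.2a and 30.5% gdf10a, while 1.15% held slit3 and 9.20% ntn1b.

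**Figure D4:**
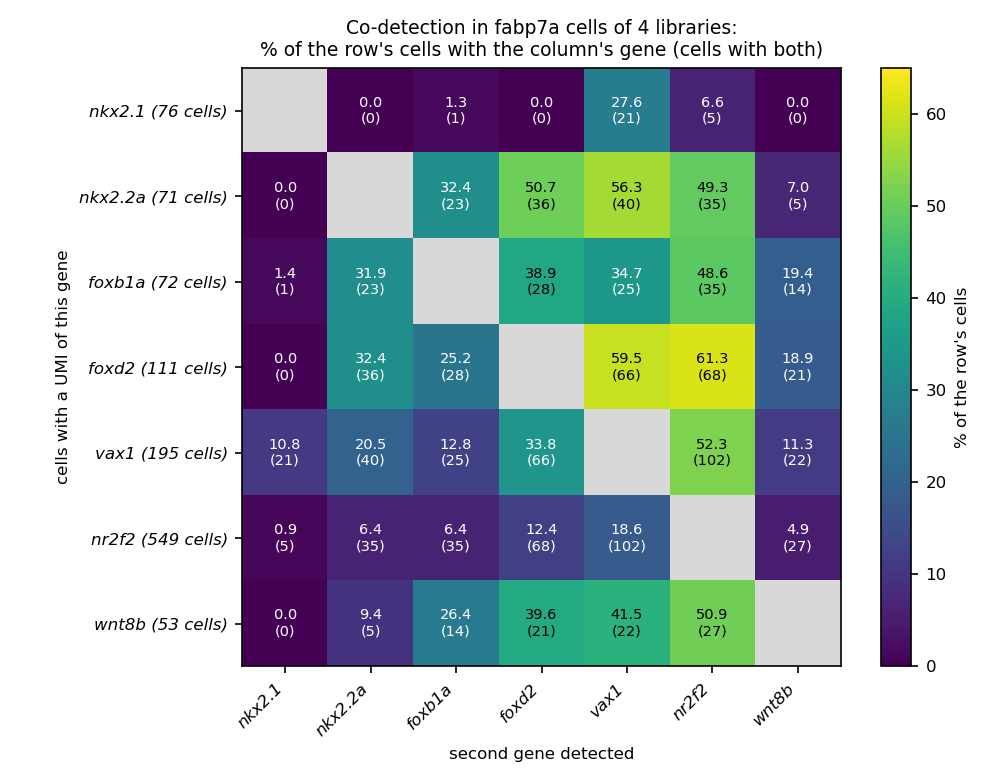
Joint detection of the 7 genes in fabp7a cells of all 4 libraries: each field gives the percent of cells positive for the row gene that also held the column gene, with the number of cells that held both. The fields of nkx2.1 with nkx2.2a, foxd2 and wnt8b are at 0, and the pair of foxd2 and vax1 holds 66 cells.

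The genes most like each of the 7 were ranked by the lowest difference, over libraries with at least 10 positive cells, between positive and negative fabp7a cells. For nkx2.1, in the 2 injured libraries, these were si:dkey-58i8.5 (lowest difference 4.90 log2), ntn1b (4.85), slit2 (4.2) and spon1b (4.11). Shares of cells, here and with the lists below, pool all 4 libraries. The netrin gene ntn1b was detected in 64.5% of nkx2.1-positive and 1.84% of nkx2.1-negative cells, and slit2, a repellent ligand, in 68.4% and 2.53%. Both, with the spondin gene spon1b (32.9% and 1.82%), encode secreted guidance or matrix proteins. Of 9396 genes, 2% were at least 2-fold higher and 5.21% at least 2-fold lower in nkx2.1-positive cells of both injured libraries.

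For nkx2.2a, in 3 libraries, the nearest genes were olig2 (lowest difference 3.73 log2), dcn (3.64), foxd2 (3.64) and the secreted protease gene bmp1b (3.55). The basic helix-loop-helix factor olig2, a gene of ventral progenitors and of oligodendrocyte precursors, was detected in 60.6% of nkx2.2a-positive and 2.45% of nkx2.2a-negative cells. The list of oligodendrocyte precursor markers includes both olig2 and nkx2.2a. Over all fabp7a cells, its other members were found in 7.64% (pdgfra), 0.241% (sox10), 0.0964% (olig1), 0.0241% (gpr17) and 0% (cspg4) of cells. For foxb1a the nearest genes were dcn (3.29), gdf10a (3.19), foxd2 (2.87) and foxp4 (2.72), with gdf10a in 37.5% of foxb1a-positive and 1.59% of foxb1a-negative cells.

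For foxd2, in all 4 libraries, they included dcn (lowest difference 4.35 log2), eno4 (4.2) and gdf10a (3.96). For vax1 they included dcn (4.24), gdf10a (3.98) and eno4 (3.85). After thinning to 1000 UMIs the lowest difference of gdf10a for vax1 was -0.27 log2, and 2 of the 4 genes named for vax1 were named again. These 3 genes were thus near to both foxd2 and vax1, which share 66 cells. For nr2f2 the lowest differences were smaller, at 2.77 for eno4, 2.46 for vax1 and 2.37 for both gdf10a and dcn. For wnt8b, in 3 libraries, they included scdb (4.12), a fatty acid desaturase gene, gdf10a (3.70) and zgc:64022 (3.02). The gene scdb was detected in 58.5% of wnt8b-positive and 1.07% of wnt8b-negative cells.

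Other regional genes were read from lists, as genes with at least 30 UMIs that were at least 2-fold higher or lower in positive cells of every library used. Of 8 pallial factors, which mark the dorsal telencephalon, 7 were lower and 0 higher in nkx2.1-positive cells. The pallial homeobox gene emx3 was detected in 3.95% of nkx2.1-positive and 36.8% of nkx2.1-negative cells, and pax6a in 1.32% and 30.4%. Of 6 subpallial factors, olig2 was higher, at 42.1% of positive and 2.73% of negative cells, and 3 were lower, among them sp8a at 1.32% and 31.1%. Of 9 telencephalic and anterior factors, 2 were higher and 1 was lower. The anterior factor six3a was detected in 36.8% of nkx2.1-positive and 2.90% of nkx2.1-negative cells, and foxg1a, a factor of the whole telencephalon, in 71.1% and 56.6% without passing 2-fold.

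That list read differently for the genes of cluster 10. The factor foxg1a, present in most fabp7a cells, was lower in cells positive for nkx2.2a (12.7% of positive and 57.6% of negative cells), foxb1a (8.33% and 57.7%), foxd2 (8.11% and 58.2%) and wnt8b (5.66% and 57.5%). It was not past 2-fold in every library for vax1, where 33.8% of positive and 58.0% of negative cells held it, or for nr2f2, where 67.9% and 55.1% did. Among pallial factors, 3 of 8 were lower and 1 was higher (pax6b, 32.4% and 6.77%) in nkx2.2a-positive cells, 3 were lower for foxb1a, 2 for foxd2, 2 for vax1, 1 for nr2f2 and 1 for wnt8b. Among all 9396 genes, the shares at least 2-fold higher in positive cells were 0.851% for nkx2.2a, 1.14% for foxd2, 0.607% for vax1 and 0.319% for nr2f2. The shares at least 2-fold lower were 4.31% for nkx2.2a, 2.82% for foxb1a, 1.60% for foxd2, 1.11% for vax1, 1.17% for nr2f2 and 3.72% for wnt8b.

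Some roof plate and hem factors, which mark the dorsal midline, were higher in cells positive for foxb1a or wnt8b. Of 9 such genes, 5 were higher and 0 lower in foxb1a-positive cells, where 0.968% of all genes were higher. They were gdf10a, the LIM homeobox gene lmx1bb (13.9% of positive and 0.638% of negative cells), zic2b (12.5% and 0.687%), zic5 (11.1% and 1.1%) and zic1. Of these, gdf10a was also higher in cells positive for nkx2.2a, foxd2, vax1 or nr2f2. By contrast lmx1bb, a leading gene of cluster 19, was found in 0% of foxd2-positive and 0% of vax1-positive cells. In wnt8b-positive cells 4 of 9 were higher, where 0.788% of all genes were higher, with zic2a in 56.6% of positive and 4.35% of negative cells. In nkx2.1-positive cells 3 of the 9 were lower and 0 higher. For the remaining genes the list was divided, with 1 higher and 1 lower for nkx2.2a, 2 higher and 0 lower for foxd2, 2 higher and 3 lower for vax1, and 1 higher and 0 lower for nr2f2.

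Of the Wnt ligands and readouts, nkd1, a feedback inhibitor of Wnt signalling, was the one gene of 9 that was higher in wnt8b-positive cells, at 49.1% of positive and 4.15% of negative cells. It was also higher in cells positive for foxd2 (33.3% and 3.94%), vax1 (25.6% and 3.69%) and nr2f2 (11.7% and 3.67%). For the readout axin2 the difference in CPM was between -0.60 and -0.06 log2 in the libraries used, although the deeper wnt8b-positive cells held it in 17% of cases and wnt8b-negative cells in 9.30%. Of 12 Hedgehog pathway genes, 0 were at least 2-fold higher in every library used for any of the 7 genes. Those at least 2-fold lower numbered 7 for nkx2.1, 5 for nkx2.2a, 3 for foxb1a and 2 for foxd2. For vax1, nr2f2 and wnt8b there were 1, 1 and 4. Over all genes, 5.21% were lower for nkx2.1, 4.31% for nkx2.2a, 2.82% for foxb1a and 1.6% for foxd2. For vax1, nr2f2 and wnt8b these shares were 1.11%, 1.17% and 3.72%. The co-receptor gene cdon was among the lower genes for nkx2.2a, at 7.04% of positive and 45.5% of negative cells, and gas1a for nkx2.1, at 3.95% and 26.3%. The Hedgehog target ptch1 was found in 2.63% of nkx2.1-positive and 2.55% of nkx2.1-negative cells, and gli1 in 1.32% and 4.13%. Some genes were higher in every library used without reaching 2-fold in each. They included hhip for nkx2.1 (0.68 to 0.85 log2, 21.1% and 7.05% of cells) and gli1 for wnt8b (0.71 to 1.39 log2).

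Relatives of the 7 genes were also measured. In nkx2.2a-positive cells the close relative nkx2.2b was detected in 15.5% of cells, against 0.613% of nkx2.2a-negative cells. The forkhead gene foxd1 was found in 21.6% of foxd2-positive and 0.495% of foxd2-negative cells and in 33.8% of nkx2.2a-positive and 0.491% of nkx2.2a-negative cells. The COUP-TF genes nr2f1a (53.4% and 14.7%) and nr2f1b (8.2% and 1.53%) were both higher in nr2f2-positive than in nr2f2-negative cells. Whether reads could be split between such relatives in the counting is not given in the sources used here.

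**Figure D5:**
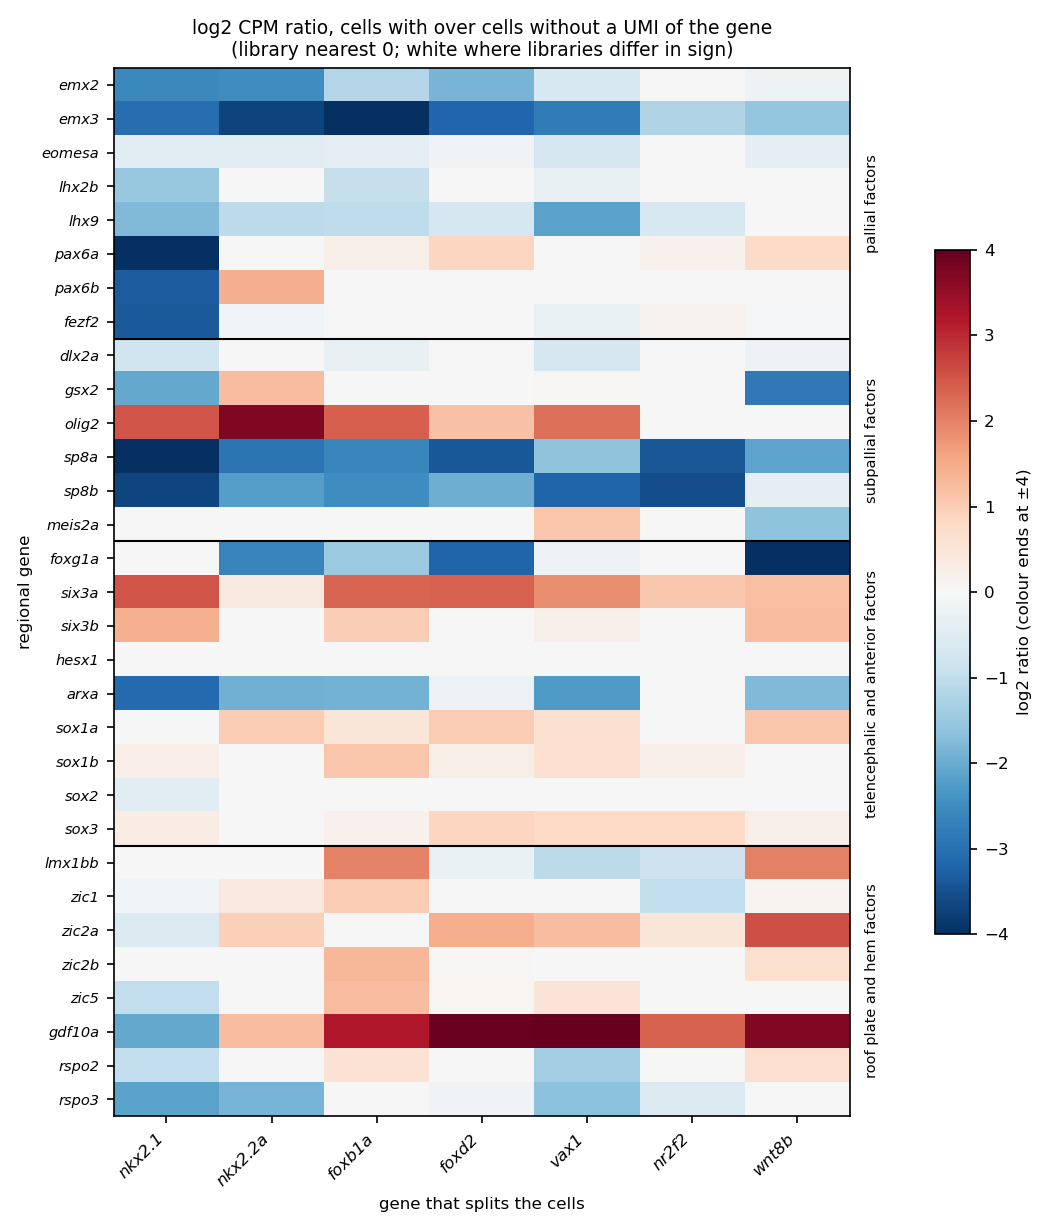
Log2 ratio of CPM in positive over negative fabp7a cells for pallial, subpallial, telencephalic and roof plate factors (genes) against each of the 7 genes, as the value of the library nearest 0 (white where libraries differ in sign, colours end at 4 and -4). Pallial factors are low in nkx2.1-positive cells. The roof plate factor gdf10a is high in cells positive for every gene but nkx2.1, and lmx1bb is high in foxb1a- and wnt8b-positive cells.

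Across libraries, the regional lists moved in part with the 7 genes. Of 5 roof plate and hem factors with at least 30 UMIs, 4 were at least 2-fold lower and 0 higher in the injured than in the uninjured library, and with MTZ 3 of 9 were lower and 0 higher. Among them, gdf10a was at 5.93 CPM in the injured library with MTZ and 7.02 CPM in the injured, against 31.0 CPM in the uninjured with MTZ and 23.0 CPM in the uninjured library. Of 7 pallial factors, 4 were lower without MTZ and 0 with MTZ, with medians of -1.06 and -0.20 log2. Over all genes, 6.24% were at least 2-fold lower after injury without MTZ and 5.98% with MTZ. Of 5 subpallial factors, 2 were lower and 0 higher without MTZ, and 0 lower and 1 higher with MTZ. The pallial list also differed between the uninjured libraries, with 2 of 7 lower with MTZ and a median of -0.75 log2. So did the subpallial list, with 3 of 5 lower with MTZ and a median of -1.11 log2. Over all genes, 4.95% were lower in that comparison. Between the injured libraries 0 pallial factors were lower with MTZ, with a median of 0.33 log2. Of 8 roof plate and hem factors, 3 were higher and 0 lower with MTZ in injured fish, where 2.47% of all genes were higher. In uninjured fish 1 of 8 was higher and 1 lower with MTZ. These differences between comparisons were not tested.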

How the data were processed

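The authors deposited, per the file headers, 1 matrix of UMI counts per library, with gene and barcode lists. The matrix headers name Cell Ranger 4.0.0, and the submitters' processing notes name Cell Ranger 3.1.0 and GRCz11. The counts are whole numbers and not normalized. Identifiers sharing a symbol were summed (25107 identifiers, 24435 symbols); 0 columns of other samples were present. Cells needed 300 genes or more and no more than 25% of UMIs from mitochondrial genes. Scrublet scores (scanpy 1.11.5) ranked likely doublets, and the top 0.8% per 1000 barcodes were left out, 51 in all. Clusters came from 2000 variable genes without the 7 genes, 30 principal components, 15 neighbours and Leiden resolution 1. They were named from marker lists by a rule set after seeing them. CPM is the sum of a gene's UMIs over fabp7a cells per 1000000 UMIs there. Shares have Clopper-Pearson intervals, levels Poisson intervals and ratios conditional binomial intervals (scipy 1.17.1). Some counts of 0 are given with the upper bound of the exact interval, and that of cluster 10 with the share that 3 cells would make. Background shares use genes with at least 30 UMIs in both libraries together, or at least 30 UMIs in fabp7a cells when positive and negative cells are compared; foxb1a (injured with MTZ against injured) and nkx2.1 (uninjured with MTZ against uninjured) were under 30. The 4 genes named per member had at least 100 UMIs and the highest lowest ratio (prior count 0.5) over libraries with at least 10 positive cells; up to 4 were named per list. Some genes that this rule names are not reported here. The ratio and likeness code was tested on simulated data. Members and lists were chosen with earlier results of these data known. Alternatives were other fabp7a rules, cell filters, doublets kept, 2 UMIs per positive cell, thinning to 1000 UMIs, TMM factors (edgeR 4.0.16), 1 count per cell, no count filter and leaving out each library.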

Additional observations from a re-analysis of the deposited data

How the results depend on the processing

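Leaving out each library in turn gave 15 to 15 pairs, a count that cannot fall when fewer libraries are asked for and so says nothing of stability. The counts of genes past 2-fold and the 15 pairs moved by under 1.5 times, and no ratio turned its direction, under fabp7a rules of 0.25% and 1%, no filter on cells, at least 800 genes per cell with a mitochondrial limit of 10% and doublets kept. The same held for the counts and ratios under TMM factors. In the radial glia-like clusters, which leave out cluster 10, 3 genes instead of 1 were past 2-fold between the injured libraries with and without MTZ, 1 instead of 0 in uninjured fish with MTZ against uninjured fish, and 2 pairs were found more often together in all 4 libraries. The foxd2 injury ratio was 1.43 log2 there, with 12 foxd2-positive cells over the 4 libraries, and nkx2.2a had no UMI in the uninjured library. Requiring 2 UMIs left 9 pairs and thinning left 4 pairs. Counting a gene once per cell left 0 genes past 2-fold between the injured libraries. After thinning, gdf10a had a lowest ratio of -0.27 log2 for vax1. Between 0 and 2 of the 4 genes named per member were named again after thinning (not possible for wnt8b), and 1 to 4 without each library. With no filter on low counts and a prior count of 0.5, between 9.79% and 16.2% of all genes were past 2-fold in a direction. Thinned shares rest on few cells, which is what depth limits here. No paired analysis was possible because each group is 1 library and the replicate numbers are only names. The causes of these changes were not tested beyond the cells or UMIs each setting removes.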

Other observations

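Further gene lists differed between positive and negative fabp7a cells. Of 15 proliferation genes, 4 were at least 2-fold higher in nkx2.1-positive cells of both injured libraries and 0 lower. They were the replication gene mcm5, the cell cycle kinase gene cdk1 (lowest difference 1.21 log2), the thymidylate synthase gene tyms (1.08) and mcm2 (1.07). Over all genes, 2% were higher and 5.21% lower. None of the 15 was higher in every library used for the other 6 genes, with 2 lower for nkx2.2a, 1 for foxb1a and 1 for foxd2. Over all genes, 4.31% were lower for nkx2.2a, 2.82% for foxb1a and 1.60% for foxd2. The nkx2.1-positive cells were also the deepest, with a median of 7525 UMIs, and the part of depth in this difference was not tested. The Hes-family repressor her9 was detected in 32.9% of nkx2.1-positive and 14.0% of nkx2.1-negative cells, in 49.5% of foxd2-positive and 13.4% of foxd2-negative cells, and in 47.2% of wnt8b-positive and 14.0% of wnt8b-negative cells. It was at least 2-fold higher in every library used for these 3 genes.

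Of 14 interferon response genes, isg15, a ubiquitin-like modifier, was higher in nkx2.1-positive cells, at 47.4% of positive and 16.6% of negative cells, and 0 were lower, where 2% of all genes were higher and 5.21% lower. In wnt8b-positive cells 2 of the 14 were lower and 0 higher, where 3.72% of all genes were lower and 0.788% higher, with isg15 in 5.66% of positive and 17.3% of negative cells and rsad2, an antiviral enzyme gene, in 1.89% and 14.9%. Cells positive for foxd2, foxb1a or nr2f2 were also at least 2-fold lower for rsad2 in every library used. So were nkx2.2a-positive cells for irf7. Over all genes, 1.60% were lower for foxd2, 2.82% for foxb1a, 1.17% for nr2f2 and 4.31% for nkx2.2a. The isg15 difference for nkx2.1, 1.16 to 1.35 log2, comes from the 2 injured libraries, and the differences for wnt8b come from 3 libraries. The shares pool all 4 libraries. Of the 76 nkx2.1-positive cells, 32 came from the injured library with MTZ and 30 from the injured library. The part of injury in the isg15 shares was not tested, and the genes are not set against each other.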
